A study of Etheostoma caeruleum with 31 samples.

Results

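The set described here holds the 150 probes whose average signal in the testis of the rainbow darter (Etheostoma caeruleum) differed least between 5 stages of the reproductive year. They were taken from 6667 probes with names beginning GT_ that were well above background on all 31 arrays, out of 9041 non-control probes on the array, and so make up 2.25% of the probes they were drawn from. For every probe the log2 signal was expressed relative to the array's 75th percentile, the 5 stage means were formed, and the lowest stage mean was subtracted from the highest. The 150 probes with the smallest such range are the members, ranked by their range from rank 1 upwards. Small stage differences are therefore what chose them and are given as a description.

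The rainbow darter is a small freshwater fish with 1 spawning season a year, and its testis is rebuilt within each cycle. Germ cells renew, multiply, pass through meiosis and mature into sperm, and the tissue regresses after spawning, so that the proportions of germ, Sertoli, Leydig and interstitial cells shift with the season. Transcripts whose level holds through such a cycle are of practical use, because seasonal expression studies need reference genes, and genes of general cell maintenance are the usual candidates. A level that is steady in bulk tissue can come from a transcript shared evenly by the cell types or from opposite shifts that cancel, and fewer cells of a type cannot be told apart from less RNA per cell.

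Total RNA from the testes of adult males, all caught at a clean site of the Grand River, Canada, was hybridised to Agilent 1-colour arrays with Cy3. The stages were spawning (May 2011, 7 arrays), post-spawning (August 2011, 6 arrays), recrudescence, when the testis regrows (October 2011, 5 arrays), developing (January 2012, 6 arrays) and pre-spawning (March 2012, 7 arrays). Each stage was 1 collection, so that stage, month and year cannot be told apart. The labels call the arrays of a stage biological replicates.

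The 75th percentile of the signal lay between 2734 and 5093 intensity units on the 31 arrays, with stage means of 3616 ± 535 in spawning, 3798 ± 724 in post-spawning, 3848 ± 552 in recrudescence, 4026 ± 658 in developing fish and 3490 ± 332 in pre-spawning fish (SD over the 7, 6, 5, 6 and 7 arrays). The share of probes well above background per array ran between 78.0% and 95.8%, and no spot was saturated. The arrays lay on 4 slides of 8, 8, 8 and 7 arrays, and recrudescence was absent from the fourth. Neither gene names nor sequences came with the probes, so that the members carry no gene names, the labelled tissue could not be set against its markers, and the members are given by rank apart from 4 that are named by their identifier.

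The range of the members' stage means ran between 0.05 and 0.28 on the log2 scale, that is, between 1.04-fold and 1.22-fold. Its quartiles were 0.19, 0.23 and 0.26, and the median corresponds to 1.17-fold. The other 6517 eligible probes had a median range of 1.05, which is 2.06-fold, and reached 9.97, which is 1005-fold. The members thus form the thin lower end of a continuous distribution. There was no gap at its edge, since the last 2 probes inside had ranges of 0.2825 and 0.2827 and the next 2 outside 0.2829 and 0.2842.

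**Figure D1:**
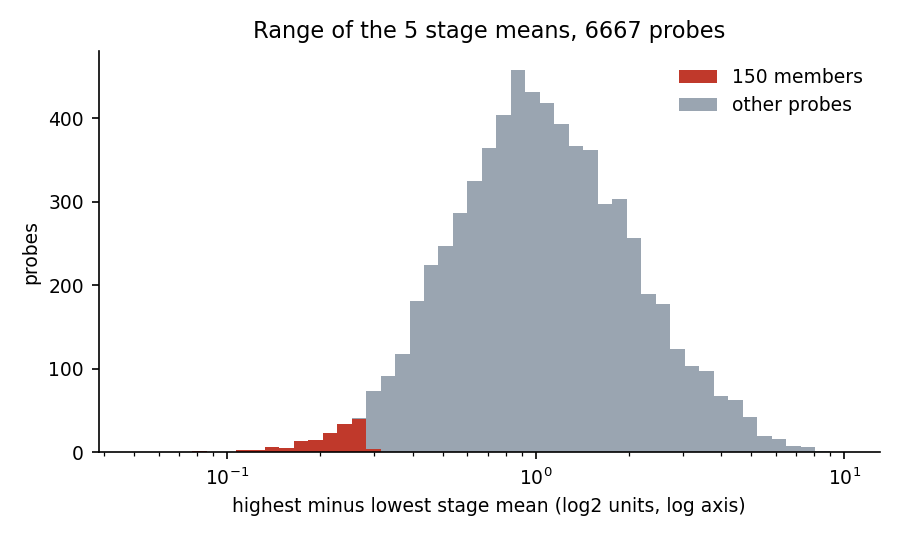
The histogram counts the 6667 eligible probes by the range of their 5 stage means, on a log axis in log2 units, with the 150 members in red and the other probes in grey. The members occupy the left tail, up to 0.28, and the bulk of the other probes lies around the median of 1.05.

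The 4 named probes are the steadiest by this rule among members with a higher and among members with a lower post-spawning than spawning mean, with 2 of each. GT_EA516_an_s_sp_234 had the smallest range of all, 0.05 (1.04-fold), around a mean of -1.24. Its stage means were -1.26 ± 0.37 in spawning, -1.20 ± 0.27 in post-spawning, -1.25 ± 0.53 in recrudescence, -1.25 ± 0.35 in developing fish and -1.22 ± 0.48 in pre-spawning fish (SD). The near identity of these means covered wide differences between the arrays of a stage. The lowest, median and highest value of GT_EA516_an_s_sp_234 were -1.83, -1.32 and -0.76 in spawning and -1.70, -1.09 and -1.0 in post-spawning fish. The 5 recrudescence values were -0.47, -1.82, -1.61, -1.29 and -1.06. In developing fish the lowest, median and highest value were -1.72, -1.24 and -0.69, and in pre-spawning fish -2.11, -1.13 and -0.56. Every stage overlapped every other, and the 31 arrays spanned 3.12-fold.

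The low pre-spawning value of GT_EA516_an_s_sp_234 belonged to replicate 6, where the probe's 2 spots gave -3.33 and -0.89, a gap of 2.44 or 5.44-fold. On the other 30 arrays its spots differed by 0.04 to 0.42. Neither spot carried an outlier flag, so both entered the mean. With the lower spot alone on that array the range became 0.19 and with the higher spot alone 0.21, and without the array it was 0.18. Leaving out recrudescence replicate 1, the highest fish of its stage, gave a range of 0.24. All of these remain below the range of 0.28 at the edge of the set, while rank 1 itself rested on these arrays.

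GT_EA516_an_s_sp_4245, at rank 3, had a range of 0.08 (1.06-fold) around a mean of -3.06. Its stage means were -3.08 ± 0.22 in spawning, -3.02 ± 0.29 in post-spawning, -3.10 ± 0.19 in recrudescence, -3.05 ± 0.44 in developing fish and -3.07 ± 0.25 in pre-spawning fish. The developing fish were the most spread, with a lowest, median and highest value of -3.62, -3.12 and -2.42, and they bounded all other fish on both sides. The lowest, median and highest value were -3.39, -3.04 and -2.80 in spawning, -3.44, -2.97 and -2.67 in post-spawning and -3.31, -3.16 and -2.60 in pre-spawning fish. The 5 recrudescence values were -2.80, -3.26, -3.09, -3.25 and -3.10. The 31 arrays spanned 2.30-fold, and no stage stood clear of another. Leaving out 1 array at a time gave ranges of 0.05, without post-spawning replicate 1 or 2, to 0.17, with 0.13 or more without developing replicates 1 and 6, post-spawning replicates 3 and 5, recrudescence replicate 1 and pre-spawning replicate 7, each left out alone. Its spots lay at most 0.63 apart, on post-spawning replicate 2.

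GT_EA516_an_as_xh_2028, at rank 2, had a range of 0.08 (1.06-fold) around a mean of -2.41 and the most even spread of the 4. Its stage means were -2.41 ± 0.21 in spawning, -2.43 ± 0.26 in post-spawning, -2.44 ± 0.20 in recrudescence, -2.42 ± 0.21 in developing fish and -2.35 ± 0.22 in pre-spawning fish. The lowest, median and highest value were -2.75, -2.44 and -2.17 in spawning, -2.85, -2.42 and -2.12 in post-spawning, -2.68, -2.40 and -2.11 in developing and -2.53, -2.47 and -1.98 in pre-spawning fish. The 5 recrudescence values were -2.24, -2.33, -2.68, -2.32 and -2.61. All stages overlapped, and the 31 arrays spanned 1.83-fold. Leaving out 1 array at a time gave ranges between 0.03, without pre-spawning replicate 7, and 0.14, without post-spawning replicate 2. The range was also 0.04 without pre-spawning replicate 6, 0.13 without recrudescence replicate 1 and 0.12 without developing replicate 5. Its spots lay at most 0.79 apart, on recrudescence replicate 1.

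GT_EA516_an_s_sp_85, at rank 5, had a range of 0.11 (1.08-fold) around a mean of -3.45. Its stage means were -3.45 ± 0.19 in spawning, -3.50 ± 0.12 in post-spawning, -3.39 ± 0.37 in recrudescence, -3.39 ± 0.16 in developing fish and -3.50 ± 0.15 in pre-spawning fish. Recrudescence was the most variable stage, and its 5 values of -3.27, -3.55, -2.93, -3.92 and -3.28 held both the highest and the lowest array of the year. The highest, recrudescence replicate 3, averaged spots of -3.33 and -2.54, a 1.73-fold gap and the widest of this probe, and with the lower spot alone it would not be the highest. The lowest, median and highest value were -3.78, -3.46 and -3.18 in spawning, -3.65, -3.46 and -3.36 in post-spawning, -3.67, -3.33 and -3.25 in developing and -3.67, -3.55 and -3.23 in pre-spawning fish. The 31 arrays spanned 1.98-fold, and the stages overlapped. Leaving out 1 array at a time gave ranges of 0.11 to 0.24, the highest without recrudescence replicate 4, and 0.17 without developing replicate 3.

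Post-spawning minus spawning was 0.05 ± 0.22 for GT_EA516_an_s_sp_234, 0.07 ± 0.16 for GT_EA516_an_s_sp_4245, -0.02 ± 0.12 for GT_EA516_an_as_xh_2028 and -0.05 ± 0.12 for GT_EA516_an_s_sp_85 (log2, limma estimate ± SE). These differences are smaller than their own errors. The probes were chosen for small ranges, which cap these differences, so nothing is read from this. The 95% limma intervals of all 10 pairs of stages are given as a description. They are centred on differences chosen for being small and are not adjusted for the 10 pairs. They can therefore lie too close to 0 and do not bound the true differences at 95%. The bound farthest from 0 among them corresponded to 1.45-fold for GT_EA516_an_s_sp_234, 1.36-fold for GT_EA516_an_s_sp_4245, 1.27-fold for GT_EA516_an_as_xh_2028 and 1.29-fold for GT_EA516_an_s_sp_85. The probe with the smallest range thus had the interval reaching farthest from 0 among the 4.

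**Figure D2:**
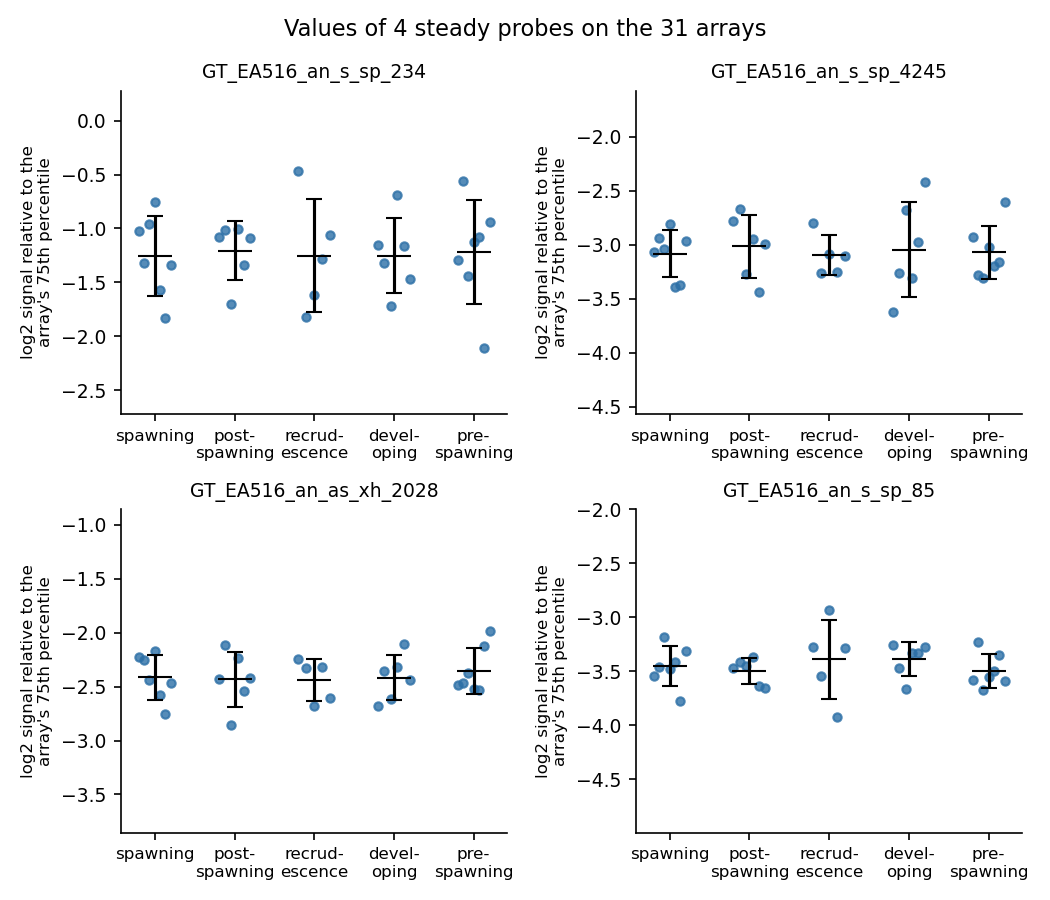
Each panel shows 1 of the 4 named probes, with a blue point per array, the stage mean as a black dash and its SD as the bar, on the log2 scale relative to the array's 75th percentile, over the 5 stages in the order of the cycle. The dashes lie almost level within each panel, while the points of a stage spread over up to 1.55 log2 units.

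Over all members, the seasonal course was flat by construction, and its details are given as a description. The median member differed by 0.01 in post-spawning minus spawning, -0.04 in recrudescence minus post-spawning, 0.06 in developing minus recrudescence, 0.00 in pre-spawning minus developing and -0.01 in spawning minus pre-spawning fish. The median SE of these differences was 0.11 to 0.13. The same medians over the other eligible probes were 0.26, -0.31, 0.12, -0.09 and 0.00. Of the 150 members, 83 had a higher post-spawning than spawning mean, 61 higher in recrudescence than in post-spawning, 97 higher in developing than in recrudescence, 76 higher in pre-spawning than in developing and 66 higher in spawning than in pre-spawning fish. The counts among the other 6517 eligible probes were 3777, 2455, 3834, 2954 and 3303 in the same order. Differences thus ran in both directions at each step among the members and among the other probes.

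The stage in which a member peaked was spawning for 28, post-spawning for 38, recrudescence for 15, developing for 33 and pre-spawning for 36. These are 18.7%, 25.3%, 10.0%, 22.0% and 24.0% of the members. Among the other eligible probes the shares were 17.2%, 45.3%, 9.45%, 15.5% and 12.5%. The lowest stage of a member was spawning for 27, post-spawning for 28, recrudescence for 49, developing for 19 and pre-spawning for 27. These are 18.0%, 18.7%, 32.7%, 12.7% and 18.0% of the members. The corresponding shares of the other probes were 23.1%, 30.4%, 17.8%, 13.0% and 15.7%. No single stage held most of the peaks or most of the lows, among the members or among the other probes. These counts have no test because the ranges that chose the members contain the same means.

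**Figure D3:**
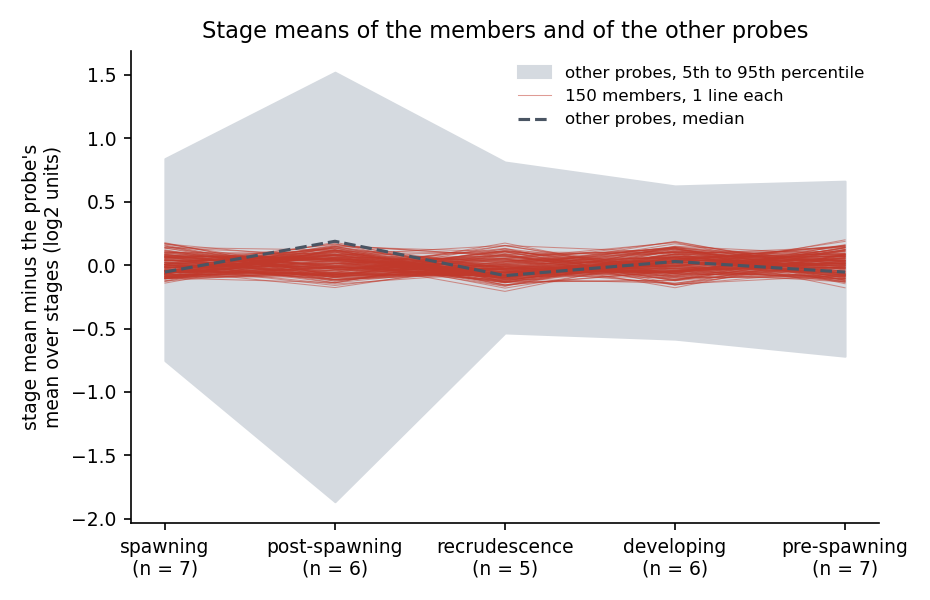
Each red line is 1 of the 150 members and follows its 5 stage means, centred on the probe's own mean over the stages, in log2 units. The grey band holds the middle 90% of the other eligible probes (5th to 95th percentile) and the dashed line is their median; the members stay between -0.22 and 0.19, and the band is widest in post-spawning fish.

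Although their means were chosen to be alike, 16 of the 150 members passed the F test for any difference between stages with an adjusted p below 0.05 (limma, Benjamini-Hochberg over all probes), against 87.6% of the 8638 probes tested. At least 1 of the 5 differences between successive stages passed for 24 members (16.0%), against 89.7% of all probes. Both counts use the contrasts that chose the members, so nothing is read from how they compare with those shares. The 16 ranked between 73 and 147, with ranges of 0.23 to 0.28, and 9 of them were highest in developing fish. Among all 150 members 33 (22.0%) were highest in that stage, and 15.5% of the other eligible probes. These peaks come from the means that chose the members, so nothing is read from them. The 16 replicated tightly, and the test sets the range against that spread. Their SD within stages was 0.11 to 0.16 with a median of 0.13, against a median of 0.22 for the 134 members that did not pass. In all, 33 members were as tight as the loosest of the 16. None of the first 50 ranks passed, against 4 of the second 50 and 12 of the last 50, while the median SD within stages was 0.22, 0.20 and 0.18 in these 3 groups of ranks. Their lowest adjusted p was 0.00806 (limma, Benjamini-Hochberg).

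The tightest of the 16, and of all members, was rank 74, with an SD within stages of 0.11 and values between 5.37 and 6.00 over the 31 arrays. The stage means of rank 74 were 5.60 ± 0.12 in spawning, 5.70 ± 0.10 in post-spawning, 5.70 ± 0.09 in recrudescence, 5.83 ± 0.12 in developing fish and 5.62 ± 0.09 in pre-spawning fish. This range of 0.23 (1.17-fold) passed the F test with an adjusted p of 0.0275 (limma, Benjamini-Hochberg). On the spike-in scale none of the 150 members passed this test. Without slides 1 to 4 in turn there were 11, 5, 3 and 11. These fits had 23 or 24 arrays, and over all probes they called 7007 to 7239. Median centring gave 36, and both quantile normalisation and the authors' table gave 54. The members' ranges were nevertheless larger on the spike-in scale, with a median of 0.42 against 0.23, and 10 members passed a successive contrast. Over all probes the F test called 6353 there, against 7565 on the main scale. The count of members called thus differed between scales and fell with fewer arrays. The members were chosen by their means on the main scale, so these counts are a description. The part of the smaller number of arrays was not tested.

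The opposite case was rank 114, the member with the widest spread. Rank 114 averaged -4.10 ± 0.56 in spawning, -4.30 ± 0.25 in post-spawning, -4.27 ± 0.67 in recrudescence, -4.31 ± 0.87 in developing fish and -4.36 ± 0.83 in pre-spawning fish. Its range of 0.26 (1.20-fold) came from single arrays between -5.64 and -2.95, the widest span of any member, 6.44-fold. Its F test gave an adjusted p of 0.958 (limma, Benjamini-Hochberg). Rank 114 was measured by 1 spot, and 6213 of the 6667 eligible probes gave a stronger signal. With 1 spot, differences between fish cannot be told apart from spot noise. Means this close in a probe this variable between arrays do not show that its level was the same in the 5 stages.

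The spread between fish of a stage was not used to choose the members. It was measured between arrays and so also holds technical differences between them. The SD within stages, pooled over the 5 stages, was 0.11 to 0.68 in the members with quartiles of 0.16, 0.20 and 0.26, against a median of 0.26 in the other eligible probes. Members were thus mostly tighter than other probes, but 42 of the 150 had an SD above the median of all eligible probes. When the eligible probes were divided into 5 equal groups by this SD, the groups held, from the tightest to the loosest, 57, 35, 27, 18 and 13 members. A small range of stage means and a small spread between fish are tied by arithmetic, since noise in the fish carries into the means, and no test was made of this relation.

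**Figure D4:**
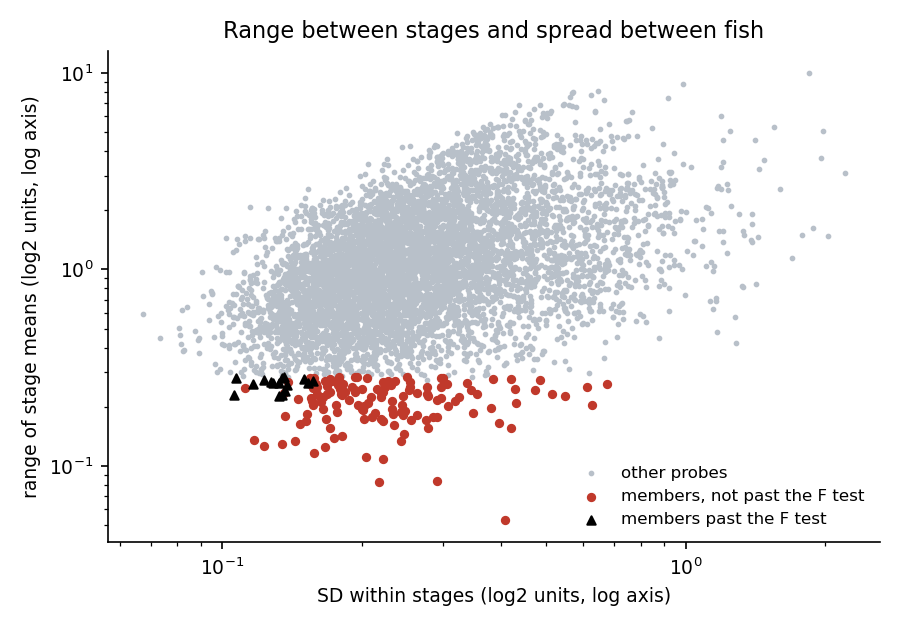
Each point is a probe, with the pooled SD within stages on the horizontal axis and the range of the 5 stage means on the vertical axis, both on log axes in log2 units. The members fill the strip below a range of 0.28 across SDs of 0.11 to 0.68, and the 16 that passed the F test, drawn as black triangles, all lie at its tight upper left edge, at SDs up to 0.16.

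The spread of the members between fish was of similar size in each season. Their median SD was 0.18 in spawning, 0.18 in post-spawning, 0.18 in recrudescence, 0.20 in developing fish and 0.20 in pre-spawning fish. The other eligible probes had medians of 0.23, 0.21, 0.23, 0.25 and 0.24. The stage with the largest SD was spawning for 27 members, post-spawning for 26, recrudescence for 32, developing for 29 and pre-spawning for 36. These are 18.0%, 17.3%, 21.3%, 19.3% and 24.0% of the members. The shares of the other eligible probes were 17.8%, 17.2%, 19.2%, 26.3% and 19.4%. The spread was tested by fitting each array's absolute deviation from its stage mean, with limma across all probes. No member passed an adjusted p under 0.05, against 1.85% of all probes (160), and 12 members (8.0%) had an unadjusted p under 0.05, against 15.1% of all probes. All probes here include dim ones that the members' filter left out. Among the 6675 probes above background on all arrays, 48 passed and 810 had an unadjusted p under 0.05. No difference between members and other probes is read from these counts. On simulated data this spread test made more false calls than its threshold allows. The count over all probes fell to 86 without developing replicate 1 and to 104 without developing replicate 3, and was 246 to 257 without each of developing replicates 2, 4, 5 and 6. The count of members was 1 without post-spawning replicate 2, without post-spawning replicate 6 and without recrudescence replicate 1, and 0 without each other array.

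The member with the smallest p in that test was rank 133, which also gave the weakest signal of the set. Rank 133 averaged -5.35 ± 0.13 in spawning, -5.21 ± 0.89 in post-spawning, -5.48 ± 0.30 in recrudescence, -5.22 ± 0.50 in developing fish and -5.49 ± 0.27 in pre-spawning fish. Its p for a difference in spread was 0.00432 before and 0.108 after Benjamini-Hochberg adjustment (limma). The post-spawning fish were the most scattered, and the highest of the 31 arrays was at -3.69, while the mean of that stage stayed within 0.27 of the others.

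Single fish set a stricter standard than stage means. The 31 arrays of a member spanned 1.41-fold to 6.44-fold with a median of 1.89-fold, against a median of 3.70-fold for the other eligible probes. All 31 arrays fell within 2-fold for 90 members (60%) and for 562 other probes (8.62%). They fell within 1.5-fold for 8 members (5.33%) and for 9 other probes (0.138%). The 95% limma intervals of all 10 stage pairs lay within 2-fold for all 150 members and for 26.5% of the others, and within 1.5-fold for 125 members (83.3%) and 2.75% of the others. The stage means entering those intervals also chose the members, and the spans over the 31 arrays contain the same stage differences. Nothing is therefore read from how the members compare with the other probes in these counts. Choosing the 150 eligible probes with the smallest SD over the 31 arrays, in place of the smallest range of stage means, kept 60 of the members.

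Whether the steadiness held in fish that did not choose the probes was measured slide by slide. The 150 steadiest probes were chosen again on 3 slides and their range was then read from the slide left out. Their median range was 0.48, 0.44, 0.45 and 0.44 on slides 1 to 4, against 1.16, 1.15, 1.12 and 1.18 for all eligible probes on the same slide. On the slides that chose them it was 0.24 to 0.25. The median chosen probe thus had a range larger by more than 0.19 in new fish than in the fish that selected it, and stood at percentiles 8.0, 7.06, 6.39 and 8.32 of all eligible probes, where low percentiles are small ranges. Of the 150, 139, 142, 145 and 141 kept all stages of the left-out slide within 2-fold, against 40.2%, 42.0%, 43.0% and 39.8% of all probes. The largest ranges there were 1.29, 1.53, 3.23 and 1.47, so that single probes chosen as steady differed widely in other fish. A slide held 7 or 8 arrays, so that each of its stage values came from 1 to 3 fish, and slide 4 held 4 stages. Means of so few fish are noisier than those of the other 3 slides, which by itself widens a range. How much of the larger range in new fish came from this was not tested. A small range is tied to a small spread within stages, and all eligible probes are not matched to the chosen ones in spread. The part of spread in the smaller ranges of the chosen probes was not tested. The left-out fish also came from the same collections as the fish that chose the probes.

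The slide an array lay on was not used by the rule either. With stage held in the limma fit, no member and none of the 8638 probes (0%) differed between slides at an adjusted p under 0.05, and 7 members (4.67%) had an unadjusted p under 0.05, against 4.93% of all probes (426). Over all probes 1 passed without spawning replicate 7 and 2 passed without recrudescence replicate 3, and none of these was a member. The smallest p of a member was 0.0193 at rank 18, with an adjusted p of 0.871. This probe ran between 2.66 and 3.26 over the 31 arrays and had a range of 0.16.

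The members covered nearly the whole range of signal strength. Probes differ in how they respond to their target, so that these values rank signals and not transcript amounts. The members' mean log2 signal ran between -5.35 and 7.34 with quartiles of -2.87, -0.84 and 0.94, against a median of -1.35 in the other eligible probes. In 5 equal groups of the eligible probes by signal, from weak to strong, 29, 22, 29, 30 and 40 were members, or 2.17%, 1.65%, 2.18%, 2.25% and 3.00%. Rank 36 gave the strongest signal of all 6667 eligible probes. Rank 36 averaged 7.40 ± 0.26 in spawning, 7.33 ± 0.28 in post-spawning, 7.32 ± 0.14 in recrudescence, 7.22 ± 0.30 in developing fish and 7.39 ± 0.11 in pre-spawning fish. Its 31 values lay between 6.72 and 7.84, and its range was 0.18 (1.14-fold).

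The rule used the GT_ at the start of the names and averaged the spots of a probe. It did not use the later fields of the names, the number of spots or their agreement. The field an stood in the names of 121 members (80.7%) and 76.2% of the others, s in 108 (72.0%) and 71.0%, and sp in 99 (66.0%) and 64.6%. The remaining members carried un, as and xh in these places, and the sources used here do not explain the fields. A single spot measured 34 members, 2 spots measured 115 and 3 spots measured 1. Among the 116 with repeated spots, the median SD between spots of an array was 0.068, against 0.074 in the others. The SD between fish exceeded the SD between spots in 115 of the 116, with a median ratio of 2.76, against 3.26 in the other probes. The differences between fish in these members were therefore mostly larger than the differences between spots. Spots of 1 array lay more than 2-fold apart at least once for 7 of the 116 members (6.03%) and for 6.35% of the other probes.

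Within stages the members moved together only weakly. After the stage means were subtracted, the median pairwise correlation of 149 members without missing values was 0.06, against 0.01 over 6637 eligible probes. Pairs with r above 0.5 made up 5.66% of the members' pairs and 4.07% of all pairs, and the first component held 20.6% and 17.0% of the variance. These pairs share the same 31 arrays and the same scaling value per array. The members' median deviation from their stage mean was lowest, at -0.15, in spawning replicate 6, and highest, at 0.10, in developing replicate 4. Over all eligible probes the same median was -0.05 and 0.10 on these arrays, so the shift in developing replicate 4 was not particular to the members. In post-spawning replicate 3 and developing replicate 3 it was -0.02 and -0.05 over all eligible probes. Spawning replicate 6 had the highest 75th percentile of its stage (4461) and developing replicate 4 the lowest of its own (3212). The members were low by 0.10 and 0.09 in post-spawning replicate 3 and developing replicate 3, at 75th percentiles of 4423 and 5093, the last being the highest of all arrays. Other arrays went the other way. Recrudescence replicate 5 had the highest 75th percentile of its stage (4473), and the members deviated by 0.02. Pre-spawning replicate 2 had the lowest of its stage (3171), and the members deviated by -0.03. The part of the scaling value in these deviations was not tested.

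Which probes were among the 150 differed with the scale, while most members kept a low rank by range. Their median rank among the 6667 eligible probes was 75.5 on the main scale and 188.5 under median centring. It was 185 after quantile normalisation, 186.5 in the authors' table and 320.5 under spike-in scaling. Single members fell as far as rank 2215, after quantile normalisation. The set was chosen on the main scale and had no gap at its edge, so counts elsewhere could only be lower. Chosen again by the same rule, 61 of the 150 members remained when arrays were centred on their median, 63 after quantile normalisation, 62 in the authors' processed table and 32 when arrays were scaled to the 5 brighter spike-in probes. Normexp background correction kept 121 and a slide term in the fit kept 123. Without slides 1 to 4 in turn 103, 110, 95 and 96 remained, and without each array in turn 131 to 145. On the main scale the post-spawning minus spawning difference was 0.30 for the median of all 8638 probes and 0.01 for the median member. Centred on the median, these values were 0.13 and -0.16, and on the spike-in scale 0.12 and -0.16. In the authors' table they were 0.15 and -0.09. A member that holds its place relative to the 75th percentile was thus slightly lower in post-spawning than in spawning fish relative to the median of the array. Median centring and spike-in scaling shift all probes of an array by the same amount. The rule kept the median member's difference small on the main scale, where the median SE was 0.12, so no direction is read from its sign. On the spike-in scale the median member shifted more at later steps. It changed by 0.26 in developing minus recrudescence, -0.38 in pre-spawning minus developing and 0.25 in spawning minus pre-spawning fish. The medians of all 8638 probes there were 0.36, -0.51 and 0.27. The mean log2 signal of the 5 spike-in probes itself ran between 12.20, in developing replicate 3, and 13.32, in pre-spawning replicate 7. The part of this variation in the results on the spike-in scale was not tested.

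**Figure D5:**
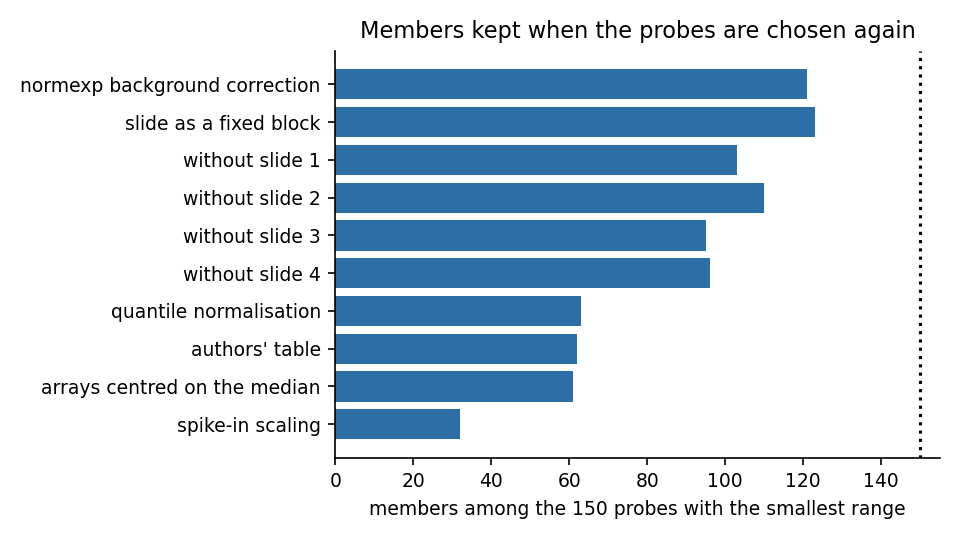
Bars count how many of the 150 members are again among the 150 probes with the smallest range when 1 processing choice is changed, and the dotted line marks 150. Background correction and the slide term keep 121 and 123 members, leaving out a slide keeps 95 to 110, and other scalings keep 32 to 63.

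Some members were chosen again under several of these settings at once. Without each of the 31 arrays in turn, 63 members stayed every time, and without each of the 4 slides in turn 44 did. Median centring, quantile normalisation, the authors' table and normexp correction all kept 34. The authors' table is close to the quantile setting and adds little to it, since 61 members were kept under both, against 62 and 63 under each alone. All 4 of these and all 4 slides kept 14 members, at ranks 3 to 67 with a median rank of 11.5. Being chosen again fixes that their ranges stayed small in these settings. Rank carried into these counts, since 18 of the first 25 members remained under median centring, against 7 of the last 25, and 17 of the first 25 remained without each slide, against none of the last 25. Adding the spike-in scaling left 2 members, at ranks 14 and 62. The first had a range of 0.14 and 31 arrays between -0.59 and 0.13, a span of 1.64-fold. The second had a range of 0.22 and arrays between -3.24 and -2.64, a span of 1.52-fold. These groups were formed after the values were seen and are a description.

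Of the named probes, GT_EA516_an_s_sp_4245 stayed among the 150 under median and quantile scaling, in the authors' table, under normexp correction and without each slide, and left under spike-in scaling, where its range was 0.40. GT_EA516_an_s_sp_234 left the set under spike-in scaling and without slides 1, 2 and 3, with ranges of 0.35, 0.50, 0.33 and 0.30. GT_EA516_an_as_xh_2028 stayed under spike-in scaling, with a range of 0.32, under normexp correction and without each slide, but left under median centring, quantile normalisation and in the authors' table, with ranges of 0.27, 0.30 and 0.30. GT_EA516_an_s_sp_85 left after quantile normalisation, in the authors' table and on the spike-in scale, with ranges of 0.42, 0.41 and 0.49. The range at the edge of the set differed between settings, so that leaving it does not require a range above 0.28.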

How the data were processed

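The labels describe testis RNA labelled with Cy3. Per the file headers, the authors extracted the scans with Agilent Feature Extraction 10.7.1.1, and the deposited intensity per spot is background-subtracted, with no normalisation between arrays. Flags for background, saturation and outliers come from the same deposited files. The authors' table holds log2 values of 15171 of the 15208 non-control spots; the sources used here do not give its normalisation, and it served as an alternative.

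The members and lists were chosen with earlier results of these data known. Spots of a probe were averaged as log2 intensity minus the log2 of the array's 75th percentile. A probe counted as above background where at least 0.5 of its spots did. The rule was applied with outlier-flagged spots kept. The printed values leave 426 flagged spots out, which concerned 5 of the 4650 member values and removed 1; on those values 149 of the 150 probes are chosen again. Stage means and contrasts were fitted with limma 3.58.1 (lmFit, eBayes; R 4.3.3) on all arrays for 8638 probes above background on at least 5 arrays, leaving out 403. Benjamini-Hochberg adjustment ran over these probes, with a threshold of 0.05. Fits were checked on simulated data with normal noise drawn independently for each probe and array, whereas noise in real arrays can be shared between probes. A minimum recovery of changed probes was required of the stage, contrast and slide tests, and not of the spread test. The number of arrays limits the precision.

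No file or table used here pairs probes with genes, so the gene lists and cell type markers gave no result. The 4 probes named are the 2 steadiest members with a higher and the 2 with a lower post-spawning than spawning mean. Normexp correction (offset 50) used the median spot and background intensities. Alternatives also covered the centring, filters, slide and replicate blocks, the number of probes chosen, and each array and slide left out. Replicate numbers are those of the sample titles, and the description field numbers 30 of the 31 arrays differently. Neither numbering was used to pair the fish in the main fits. Deviations of same-numbered arrays correlated on average at -0.003 by title and 0.017 by description. Arrays with different numbers averaged 0.0008 and -0.003. Each stage was a single collection of caught males in its own month, so a shared number is not read as the same fish. The correlations are given as a description. Tables and figures were made in Python 3.11.15.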

Additional observations from a re-analysis of the deposited data

How the results depend on the processing

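The count of members past the F test (16) was 36 under median centring, 54 after quantile normalisation, 54 in the authors' table, 0 under spike-in scaling, 5 without slide 2 and 3 without slide 3, and the count past at least 1 successive contrast (24) was 51, 63, 63, 10, 11 and 11 in the same order. Without slide 1 these counts were 11 and 20, and without slide 4 they were 11 and 19. Leaving out single arrays gave 12 to 19 and 18 to 28 members, against 7462 to 7581 and 7631 to 7773 of all probes. The probes re-chosen as members numbered 61 under median centring, 63 after quantile normalisation, 62 in the authors' table, 32 under spike-in scaling, 95 without slide 3, 96 without slide 4 and 131 to 145 without single arrays. With 75 probes chosen, all 75 were members, and choosing by the SD over the arrays kept 60. The spread test called 160 probes, against 245 after quantile normalisation, 45 under spike-in scaling, 48 among probes above background on all arrays, 64 with slide as a block, 98, 92 and 276 without slides 1, 2 and 3, 94 without developing replicates 1 and 3 (chosen after seeing the data), and 86 to 257 without single arrays. It called 3 members after quantile normalisation, 3 in the authors' table, 1 without slide 3, 1 without slide 4 and 0 to 1 without single arrays. The slide test called 1 probe without slide 1 and 0 to 2 without single arrays, with 0 to 0 members. The members' median range stayed between 0.225 and 0.237 without single arrays. It was 0.289 under median centring, 0.280 after quantile normalisation, 0.282 in the authors' table and 0.425 under spike-in scaling. The causes of these changes were not tested. The rule kept the median member's differences small on the main scale. Its post-spawning minus spawning difference (0.01) was -0.16 under median centring, -0.09 after quantile normalisation, -0.09 in the authors' table and -0.16 under spike-in scaling. In the same order, recrudescence minus post-spawning (-0.04) was 0.10, 0.05, 0.05 and 0.04. Under spike-in scaling its pre-spawning minus developing difference was -0.38, against 0.00 on the main scale. Same-numbered arrays by title, from separate collections, had r between -0.22 and 0.20 over 57 pairs. With the replicate block the F test called 7478 probes and 13 members, and 22 members passed a successive contrast. With the same block 139 members were re-chosen and the spread test called 17 probes. Groups of 5 to 7 fish limit the precision, and weak signals vary more.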
